A study of Mus musculus with 4 samples.

Results

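The genes described here encode the lower part of glycolysis and the export of its product lactate: Tpi1, Gapdh, Pgk1, Pgam1, Eno1, Pkm, Ldha, Ldhb, Slc16a1 and Slc16a3. They were chosen by symbol as members of the pathway, and all 10 had a row in the count table of 12020 genes and passed the filter on low counts, which left 11312 genes for testing. The table lists pyruvate kinase M as Pkm. The 2 groups were natural killer T (NKT) cells stimulated with plate-bound tetramers of mouse CD1d loaded with the lipid PBS57, and NKT cells kept resting, with 2 libraries each. The labels give liver as the tissue, where the protocol speaks of livers or spleens, and C57BL/6 mice of 10 to 12 weeks, and the protocol names a Vα14 T cell receptor transgene and a GFP reporter at Cxcr6, carried by stimulated and resting cells alike, with cells sorted on high GFP. The transgene supplies the receptor alpha chain typical of mouse NKT cells, which makes these cells more frequent than in mice without it, and the sources used here do not give the time of stimulation.

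In the lower part of glycolysis, triose phosphates are oxidised and turned step by step into pyruvate, which yields ATP and NADH. Lactate dehydrogenase turns pyruvate into lactate and gives back the NAD+ that the Gapdh step needs, and monocarboxylate transporters carry lactate and a proton out of the cell. Activated T lymphocytes are known for a high rate of this pathway even where oxygen is present. Several of its enzymes are known targets of the transcription factors HIF-1 and Myc.

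The libraries held 5495521 and 5398551 counts in tetramer libraries 4 and 5, and 4168438 and 4433048 counts in resting libraries 4 and 5, where the numbers are those of the column names. Levels are given as CPM, counts scaled per 1000000 of a library size adjusted by TMM factors. Genes are no independent replicates, but across those tested Pearson's r of log2 CPM was 0.956 between the tetramer libraries, 0.926 between the resting libraries and 0.787 to 0.838 between groups. Tetramer library 4 lay farther from both resting libraries (0.790 and 0.787) than tetramer library 5 did (0.836 and 0.838). Of 9 marker genes of NKT cells, all had a row, with summed levels of 3046 and 3866 CPM in tetramer libraries 4 and 5 and of 3958 and 3461 CPM in resting libraries 4 and 5, and 2 of them, Cxcr6 and Klrb1c, were called lower in tetramer-stimulated cells.

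All 10 genes rose in tetramer-stimulated cells (edgeR quasi-likelihood F test, Benjamini-Hochberg adjusted p under 0.05) and 0 fell, also at an unadjusted p under 0.05, while 14.3% of all tested genes were called higher and 12.1% lower. Their log2 fold changes, tetramer over resting, ranged from 1.62 (Eno1) to 2.85 (Slc16a3), with a median of 2.29 beside a median of -0.06 over all tested genes. The filter asks for about 2.03 counts per 1000000 in at least 2 libraries, and 9 of the genes reached it in both groups, while Slc16a3 passed through the tetramer libraries alone and so had to be higher there to be tested. For each of the 10, both tetramer libraries lay above both resting libraries, which held for 31.6% of all tested genes. In bulk RNA, fewer cells of a type and less RNA per cell cannot be told apart. With library totals in place of TMM factors the median of all genes moved by -0.29 on the log2 scale, and all 10 genes were still called higher, as were 10.5% of all genes. With limma-voom 9 of the 10 were called higher (14.2% of all genes), all but Slc16a1, and under a stricter filter that left Slc16a1 and Slc16a3 untested, 8 of 8 were (17.0%).

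**Figure D1:**
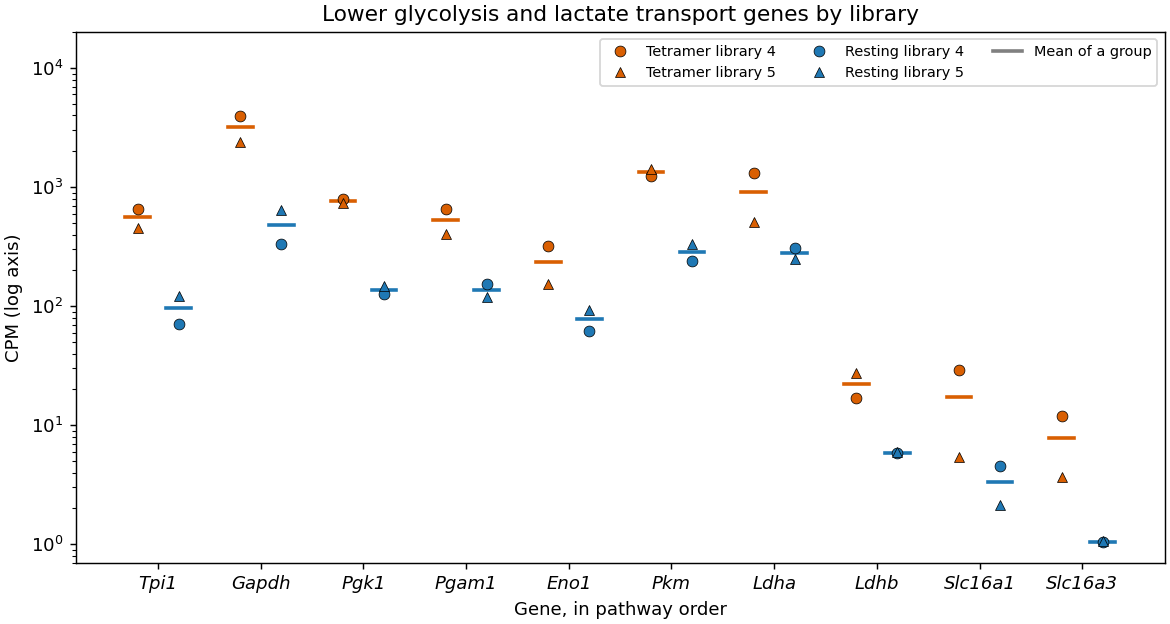
Levels in CPM (log axis) of the 10 genes in pathway order, with tetramer libraries in orange and resting libraries in blue, circles for library 4, triangles for library 5 and bars for group means. Every orange point lies above the blue points of its gene, by the narrowest margin in Slc16a1, where tetramer library 5 had 5.46 CPM and resting library 4 had 4.56 CPM.

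Triose phosphate isomerase (Tpi1), which interconverts the triose phosphates released by aldolase, had 658 and 456 CPM in tetramer libraries 4 and 5, against 71.3 and 123 CPM in resting libraries 4 and 5. The lower tetramer library was 3.71 times the higher resting library. The log2 fold change was 2.52 ± 0.40 (SE, n = 2 each; edgeR adjusted p = 4.97e-05).

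Glyceraldehyde-3-phosphate dehydrogenase (Gapdh), which oxidises the triose and makes NADH, had 3949 and 2403 CPM in tetramer libraries 4 and 5, against 330 and 638 CPM in resting libraries 4 and 5. It took more counts than any other of the 10 in every library, and the lower tetramer library was 3.77 times the higher resting library. The log2 fold change of Gapdh was 2.71 ± 0.44 (edgeR adjusted p = 5.61e-05). Gapdh often serves as the loading reference in expression assays.

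Phosphoglycerate kinase (Pgk1), the first ATP-yielding enzyme of the pathway, varied least between the tetramer libraries, with 793 and 738 CPM in tetramer libraries 4 and 5 and 126 and 147 CPM in resting libraries 4 and 5. Its log2 fold change of 2.49 ± 0.38 (edgeR adjusted p = 3.08e-05) had the smallest adjusted p of the 10. Leaving out any 1 library gave between 2.40 and 2.63.

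Phosphoglycerate mutase (Pgam1), which moves the phosphate group within phosphoglycerate, had 657 and 403 CPM in tetramer libraries 4 and 5, against 153 and 120 CPM in resting libraries 4 and 5. Its log2 fold change was 1.96 ± 0.39 (edgeR adjusted p = 0.000538).

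Enolase (Eno1), which makes phosphoenolpyruvate, had the smallest rise, with 322 and 153 CPM in tetramer libraries 4 and 5 and 61.7 and 93.0 CPM in resting libraries 4 and 5. Its log2 fold change was 1.62 ± 0.40 (edgeR adjusted p = 0.00431). Tetramer library 4 had 2.11 times the level of tetramer library 5, and without tetramer library 4 the log2 fold change was 1.0 and the call was lost (adjusted p = 0.233; 0.000589 to 0.233 over all alternatives).

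Pyruvate kinase (Pkm), which makes pyruvate and ATP, had 1239 and 1416 CPM in tetramer libraries 4 and 5, against 238 and 335 CPM in resting libraries 4 and 5. The rise was 2.21 ± 0.39 on the log2 scale (edgeR adjusted p = 0.000160). Pkm and Ldhb were the only 2 of the 10 that were higher in tetramer library 5 than in tetramer library 4. The row pools the splice forms of the gene known as M1 and M2, so their balance was not analysed here.

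The promoters of Ldha, Slc16a1, Slc16a3 and Pgk1 are shown as examples that hold letters known as binding motifs of HIF-1 or Myc. Such letters also occur in promoters of Gapdh, Pgam1, Pkm, Eno1 and Ldhb, which are not shown. The genes shown differ in how evenly the tetramer libraries carried the rise. All 10 genes matched the RefSeq promoter table (build GRCm38.p6; 250 bases before to 50 after the start), with 14 promoters. Capitals mark the E-box CACGTG and the hypoxia response cores ACGTG and GCGTG, searched on both strands, so that CACGT and CACGC also stand in capitals and each E-box also holds ACGTG on each strand. Ldha is shown at the more upstream of its listed starts.
Ldha, chr7:46845554-46845853, + strand: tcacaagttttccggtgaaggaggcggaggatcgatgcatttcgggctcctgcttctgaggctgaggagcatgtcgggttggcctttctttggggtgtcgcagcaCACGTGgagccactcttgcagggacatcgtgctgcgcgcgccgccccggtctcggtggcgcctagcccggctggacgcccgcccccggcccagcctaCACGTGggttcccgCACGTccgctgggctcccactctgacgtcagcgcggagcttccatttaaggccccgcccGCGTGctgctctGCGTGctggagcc
Slc16a1, chr3:104638414-104638713, + strand: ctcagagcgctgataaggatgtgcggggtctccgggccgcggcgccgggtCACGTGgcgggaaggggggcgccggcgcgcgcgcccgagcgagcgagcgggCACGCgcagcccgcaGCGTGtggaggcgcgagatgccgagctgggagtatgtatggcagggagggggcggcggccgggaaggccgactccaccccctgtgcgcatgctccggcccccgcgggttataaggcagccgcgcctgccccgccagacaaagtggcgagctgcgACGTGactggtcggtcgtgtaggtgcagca
Slc16a3, chr11:120948817-120949116, + strand: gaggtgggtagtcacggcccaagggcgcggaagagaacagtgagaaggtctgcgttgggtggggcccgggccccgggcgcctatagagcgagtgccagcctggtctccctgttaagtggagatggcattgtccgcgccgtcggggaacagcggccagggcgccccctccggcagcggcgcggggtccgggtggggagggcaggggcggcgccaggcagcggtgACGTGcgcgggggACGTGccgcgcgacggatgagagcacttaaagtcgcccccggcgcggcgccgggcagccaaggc
Pgk1, chrX:106186850-106187149, + strand: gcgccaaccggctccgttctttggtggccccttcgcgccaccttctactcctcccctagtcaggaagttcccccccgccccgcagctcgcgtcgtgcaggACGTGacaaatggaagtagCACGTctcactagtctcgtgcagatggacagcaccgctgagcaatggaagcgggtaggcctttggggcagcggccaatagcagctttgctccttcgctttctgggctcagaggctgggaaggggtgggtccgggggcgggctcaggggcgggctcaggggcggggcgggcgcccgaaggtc
The E-box stood in 2 of the 14 promoters, those of Ldha and Slc16a1, and in 7.15% of all 32851 promoters of the table. The core ACGTG stood in 7 of the 14 and in 19.6% of all, and GCGTG in 9 of the 14 and in 32.4% of all, with windows not matched for base composition. Counted by gene, ACGTG stood in 7 and GCGTG in 6 of the 10. Some genes have several windows, and those of Eno1 starting at 150236947 and 150236974 overlap and hold the same GCGTG sites. The 14 promoters are thus not independent. Slc16a3 and Pgk1 each held ACGTG at 2 places and no E-box, while the promoter of Tpi1 held none of these letters in its window. That of Ldhb, not shown, held GCGTG at 1 place and neither ACGTG nor an E-box. A match is a description of the letters and not a measured site.

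Lactate dehydrogenase is built from the products of Ldha and Ldhb. Ldha, the form that predominates in muscle and in highly glycolytic cells, had 1322 and 508 CPM in tetramer libraries 4 and 5, against 311 and 250 CPM in resting libraries 4 and 5. Ldha rose by 1.70 ± 0.42 on the log2 scale (edgeR adjusted p = 0.00380). Tetramer library 4 thus had 2.60 times the level of tetramer library 5, and without tetramer library 4 the log2 fold change was 0.87 and the call was lost (adjusted p = 0.300; 0.000215 to 0.300 over all alternatives).

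Ldhb, the form typical of heart muscle, had far lower counts, at 17.0 and 27.5 CPM in tetramer libraries 4 and 5 and 5.80 and 5.98 CPM in resting libraries 4 and 5. These rest on 83 and 136 counts in the tetramer libraries and on 28 counts in each resting library. The log2 fold change was 1.91 ± 0.54 (edgeR adjusted p = 0.0106), and without tetramer library 5 it was 1.53 and not called (adjusted p = 0.190; 0.00414 to 0.190 over all alternatives).

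The ratio of Ldha to Ldhb counts within a library, which no scaling factor touches, was 77.8 and 18.4 in tetramer libraries 4 and 5 and 53.6 and 41.8 in resting libraries 4 and 5. The tetramer libraries lay on either side of both resting libraries, so the groups overlapped (exact permutation test, two-sided, p = 1, where 4 libraries can give no p below 0.333). Both dehydrogenase genes rose, and no shift from Ldhb to Ldha or back was detectable.

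The lactate transporters had few counts in every library. Slc16a1, which encodes the transporter MCT1, had 29.3 and 5.46 CPM (143 and 27 counts) in tetramer libraries 4 and 5, against 4.56 and 2.14 CPM (22 and 10 counts) in resting libraries 4 and 5. Slc16a1 rose by 2.36 ± 0.69 on the log2 scale (edgeR adjusted p = 0.0127). Tetramer library 4 had 5.36 times the level of tetramer library 5, the widest gap among the 10 genes. Without tetramer library 4 the log2 fold change was 0.72 and not called (adjusted p = 0.743; 0.000799 to 0.743 over all alternatives), and limma-voom did not call it either (adjusted p = 0.0541). Scaled by library totals alone, Slc16a1 had 26.0 and 5.0 counts per 1000000 in tetramer libraries 4 and 5 and 5.28 and 2.26 in resting libraries 4 and 5, so on that scale its groups overlapped and those of the other 9 genes did not (24.0% of all tested genes).

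Slc16a3, which encodes MCT4, the exporter known from strongly glycolytic cells, had 11.9 and 3.64 CPM (58 and 18 counts) in tetramer libraries 4 and 5, against 1.04 and 1.07 CPM (5 counts each) in resting libraries 4 and 5. Its log2 fold change of 2.85 ± 0.77 (edgeR adjusted p = 0.00735) was the largest of the 10 and had the largest standard error. Both resting libraries lay below the filter's minimum, so the gene entered the test through its tetramer counts, and its call is no independent support for a rise of the whole group. With no filter its adjusted p was 0.00965 (edgeR). Without tetramer library 4 it was 1.78 and not called (adjusted p = 0.407; 0.00257 to 0.407 over all alternatives). The ratio of Slc16a3 to Slc16a1 counts was 0.406 and 0.667 in tetramer libraries 4 and 5 and 0.227 and 0.500 in resting libraries 4 and 5, with overlapping groups (exact permutation test, two-sided, p = 0.667).

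**Figure D2:**
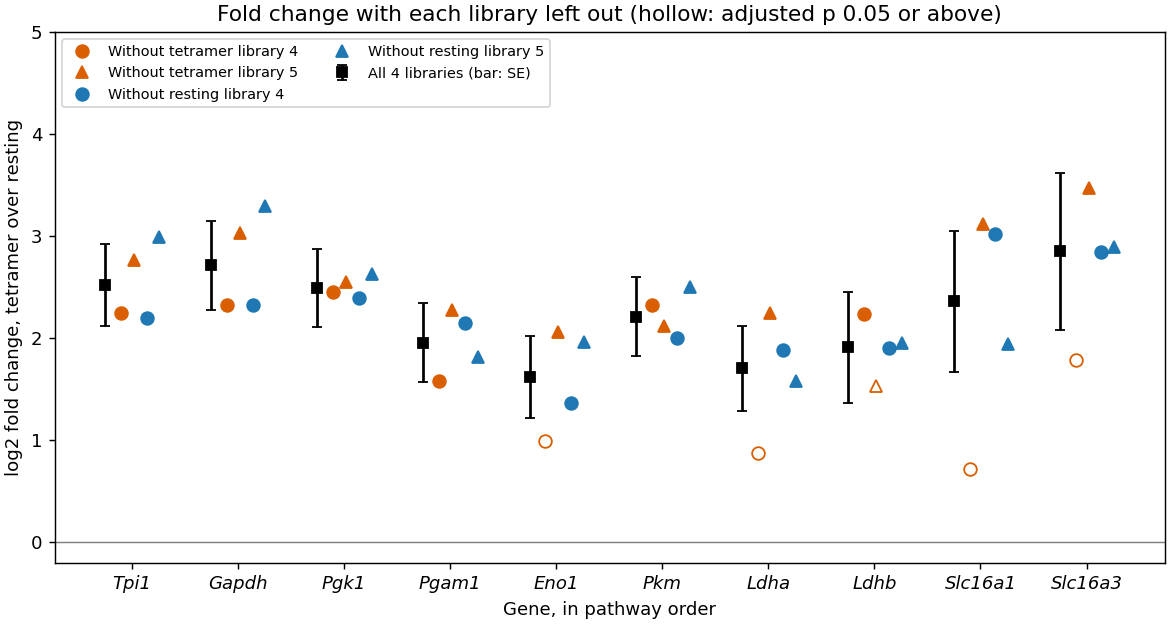
Log2 fold changes (tetramer over resting) of the 10 genes with all 4 libraries (black squares, bars are SE) and with each library left out in turn (orange where a tetramer library and blue where a resting library was left out), hollow where the adjusted p was 0.05 or above. The hollow circles of Eno1, Ldha, Slc16a1 and Slc16a3 lie at 1.0, 0.87, 0.72 and 1.78 without tetramer library 4, and the hollow triangle of Ldhb at 1.53 without tetramer library 5.

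The 10 genes differed in how evenly the tetramer libraries carried the rise. Without tetramer library 4, 6 of the 10 were still called higher (5.33% of all genes tested in that fit), namely Tpi1, Gapdh, Pgk1, Pgam1, Pkm and Ldhb, and without tetramer library 5 it was 9 of the 10 (9.89%). Without a resting library it was 10 of the 10 (13.1% and 13.9% of all genes without resting library 4 and 5). The ratio of tetramer library 4 to tetramer library 5 was 1.44 for Tpi1, 1.64 for Gapdh, 1.08 for Pgk1, 1.63 for Pgam1 and 0.875 for Pkm, while over all tested genes its quartiles were 0.737 and 1.35. Eno1, Ldha, Slc16a1 and Slc16a3 lay above 2 in this ratio. In resting cells 7 of the 10 were higher in library 5 than in library 4. Among these, Ldhb and Slc16a3 had equal counts in both resting libraries, 28 and 5 in each, and differed by library scaling alone. The widest gaps in resting cells were in Slc16a1, 2.13 times higher in resting library 4, and in Gapdh, 1.93 times higher in resting library 5. All 10 log2 fold changes were above 0 whichever library was left out. Apart from rescaling in each fit, that had to follow, because both tetramer libraries lay above both resting libraries for each gene.

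Together the 10 genes took 0.800% and 0.560% of all counts in tetramer libraries 4 and 5, with exact (Clopper-Pearson) 95% intervals of 0.793 to 0.808% and 0.553 to 0.566%. In resting libraries 4 and 5 they took 0.151% (0.147 to 0.154%) and 0.181% (0.177 to 0.185%). The intervals cover counting error only. The group means were 0.680 ± 0.170% in tetramer-stimulated and 0.166 ± 0.0215% in resting cells (SD, n = 2 each), a fold of 4.10, and the groups did not overlap (exact permutation test, two-sided, p = 0.333, the smallest that 4 libraries allow). Gapdh alone made up 43.9% and 39.3% of the 10 genes' counts in tetramer libraries 4 and 5, and 25.3% and 37.2% in resting libraries 4 and 5. The share of Ldha among them was 14.7% and 8.30% in tetramer libraries 4 and 5 and 23.9% and 14.6% in resting libraries 4 and 5. Eno1 took 3.58% and 2.50% in tetramer libraries 4 and 5, below its 4.74% and 5.42% in resting libraries 4 and 5.

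**Figure D3:**
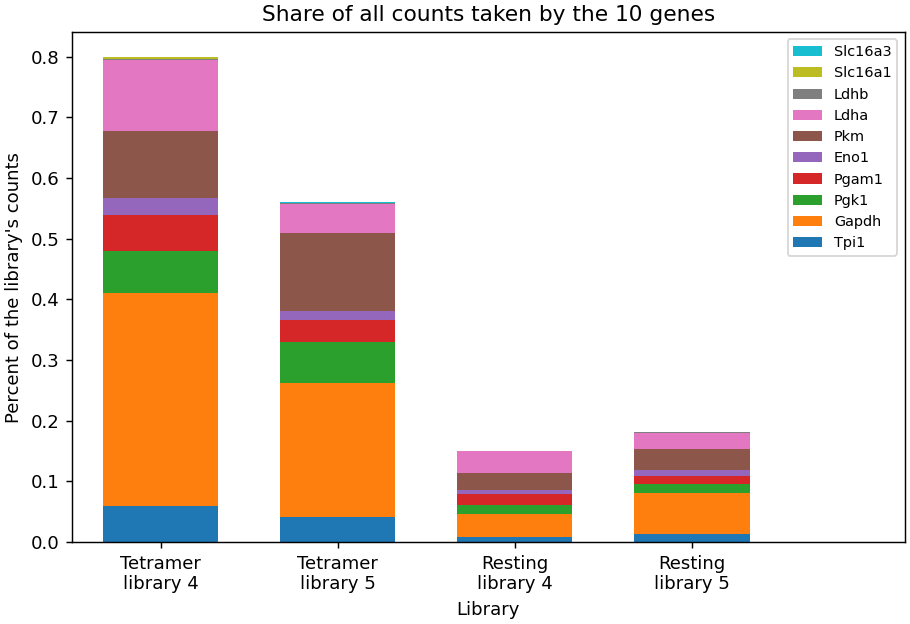
Percent of each library's counts taken by the 10 genes, stacked by gene, with tetramer libraries left of resting libraries. The stacks reach 0.800% and 0.560% in tetramer libraries 4 and 5 and 0.151% and 0.181% in resting libraries 4 and 5, and Gapdh is the thickest layer in all of them.

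Levels can be compared between genes only per transcript length, taken here from the longest principal transcript of each gene in GENCODE M21, an annotation of a later build than the mm9 of the files. The protocol amplified short cDNA pieces, and whether counts scale with transcript length was not tested. Per kilobase, mean levels in tetramer-stimulated cells ran from Gapdh (2237 CPM per kb) through Pkm (546), Ldha (518), Pgk1 (419), Tpi1 (347), Pgam1 (299) and Eno1 (117) to Ldhb (17.1), Slc16a1 (3.92) and Slc16a3 (1.79). In resting cells the order was Gapdh (341 CPM per kb), Ldha (159), Pkm (118), Pgam1 (76.9), Pgk1 (74.7), Tpi1 (60.4), Eno1 (38.2), Ldhb (4.52), Slc16a1 (0.756) and Slc16a3 (0.243). The ranges over libraries of Pkm and Ldha, Ldha and Pgk1, Pgk1 and Tpi1, Tpi1 and Pgam1, and Slc16a1 and Slc16a3 overlapped in tetramer-stimulated cells, so these neighbours were not separated. In resting cells Pgam1 and Pgk1, Pgk1 and Tpi1, and Tpi1 and Eno1 overlapped. The order takes each gene's own row without near-identical copies, which are described below. Eno1b, such a copy of Eno1, had 324 and 166 CPM in tetramer libraries 4 and 5, near the levels of Eno1. The place of Eno1 below Pgam1 and Tpi1 may thus depend on how shared reads were counted. In every library the enzymes from Tpi1 to Ldha stood above Ldhb, and Ldhb above the transporters.

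Reads of some of these genes may be shared with near-identical copies, and the sources used here do not say how the authors' counting treated them. In the GENCODE M21 transcripts, other genes with a stretch of at least 200 nt at 95% identity or more numbered 78 for Gapdh, 75 of them with pseudogene transcripts, and 4 each for Ldha and Pgk1. They numbered 3 for Eno1, 2 for Pkm, 1 each for Tpi1, Pgam1 and Ldhb, and 0 for Slc16a1 and Slc16a3. Rows of 3 such copies were analysed here. Gm12070, a processed pseudogene that matched Gapdh at 99.9% over 1002 nt, had 10447 and 9019 counts in tetramer libraries 4 and 5 and 1107 and 2212 counts in resting libraries 4 and 5. Its ratio to the Gapdh count stayed between 0.541 and 0.759 over the 4 libraries. Eno1b, which matched Eno1 at 99.5% over 1736 nt, had nearly the counts of Eno1 itself, with ratios between 0.924 and 1.19. With the copies' counts added, the log2 fold change was 2.58 for Gapdh and 1.62 for Eno1, and all 10 genes were still called higher (14.3% of all genes).

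The list of genes for glucose entry and the upper part of glycolysis had 14 tested members. Of these 5 rose and 3 fell, beside 14.3% of all tested genes called higher and 12.1% called lower. The median log2 fold change of the list was 0.20. With single libraries left out, 2 or 3 rose and 0 to 3 fell, the 0 without tetramer library 4, where 2.68% of all genes were called lower, against 5.75% when tetramer library 5 was left out. Leaving out resting library 4 or 5 gave 12.7% and 10.5% of all genes lower. Hexokinase 2 (Hk2), which traps glucose in the cell, had 50.5 and 21.2 CPM in tetramer libraries 4 and 5 and 1.45 and 2.35 CPM in resting libraries 4 and 5 (log2 fold change 4.22 ± 0.62, edgeR adjusted p = 1.76e-05). Resting library 4, at 7 counts, lay below the filter's minimum, so Hk2 passed the filter through the tetramer libraries. Slc2a6, a transporter of the glucose transporter family, had 7.16 and 3.44 CPM in tetramer libraries 4 and 5 and 1.66 and 0.427 CPM in resting libraries 4 and 5 (log2 fold change 2.31 ± 0.77). Both resting libraries, at 8 and 2 counts, lay below the filter's minimum. Slc2a6 thus entered the test through its tetramer counts, which makes its call no independent support for a rise of the list. Its call was lost in 5 of the alternatives, DESeq2 among them (edgeR adjusted p = 0.0262, DESeq2 adjusted p = 0.0714). Pfkm, the muscle form of phosphofructokinase, fell by 2.21 on the log2 scale, with 4.09 and 5.46 CPM in tetramer libraries 4 and 5 and 32.9 and 11.5 CPM in resting libraries 4 and 5, a call lost without tetramer library 4 (adjusted p = 0.110) and without resting library 4 (0.130). Another phosphofructokinase gene, Pfkp, had 161 and 174 CPM in tetramer libraries 4 and 5 and 85.8 and 80.1 CPM in resting libraries 4 and 5. Pfkp thus had higher levels than Pfkm and rose (log2 fold change 1.01 ± 0.36, edgeR adjusted p = 0.0387). Pfkl had a log2 fold change of 0.14 ± 0.44 and passed no threshold. Nor did the glucose transporter gene Slc2a1 (0.78 ± 0.42, edgeR adjusted p = 0.169). Aldolase A (Aldoa), whose reaction feeds Tpi1 and Gapdh, had 406 and 540 CPM in tetramer libraries 4 and 5 and 140 and 235 CPM in resting libraries 4 and 5. The ratio of Gapdh to Aldoa counts within a library was 9.74 and 4.45 in tetramer libraries 4 and 5 and 2.36 and 2.71 in resting libraries 4 and 5 (exact permutation test, two-sided, p = 0.333, the smallest possible).

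**Figure D4:**
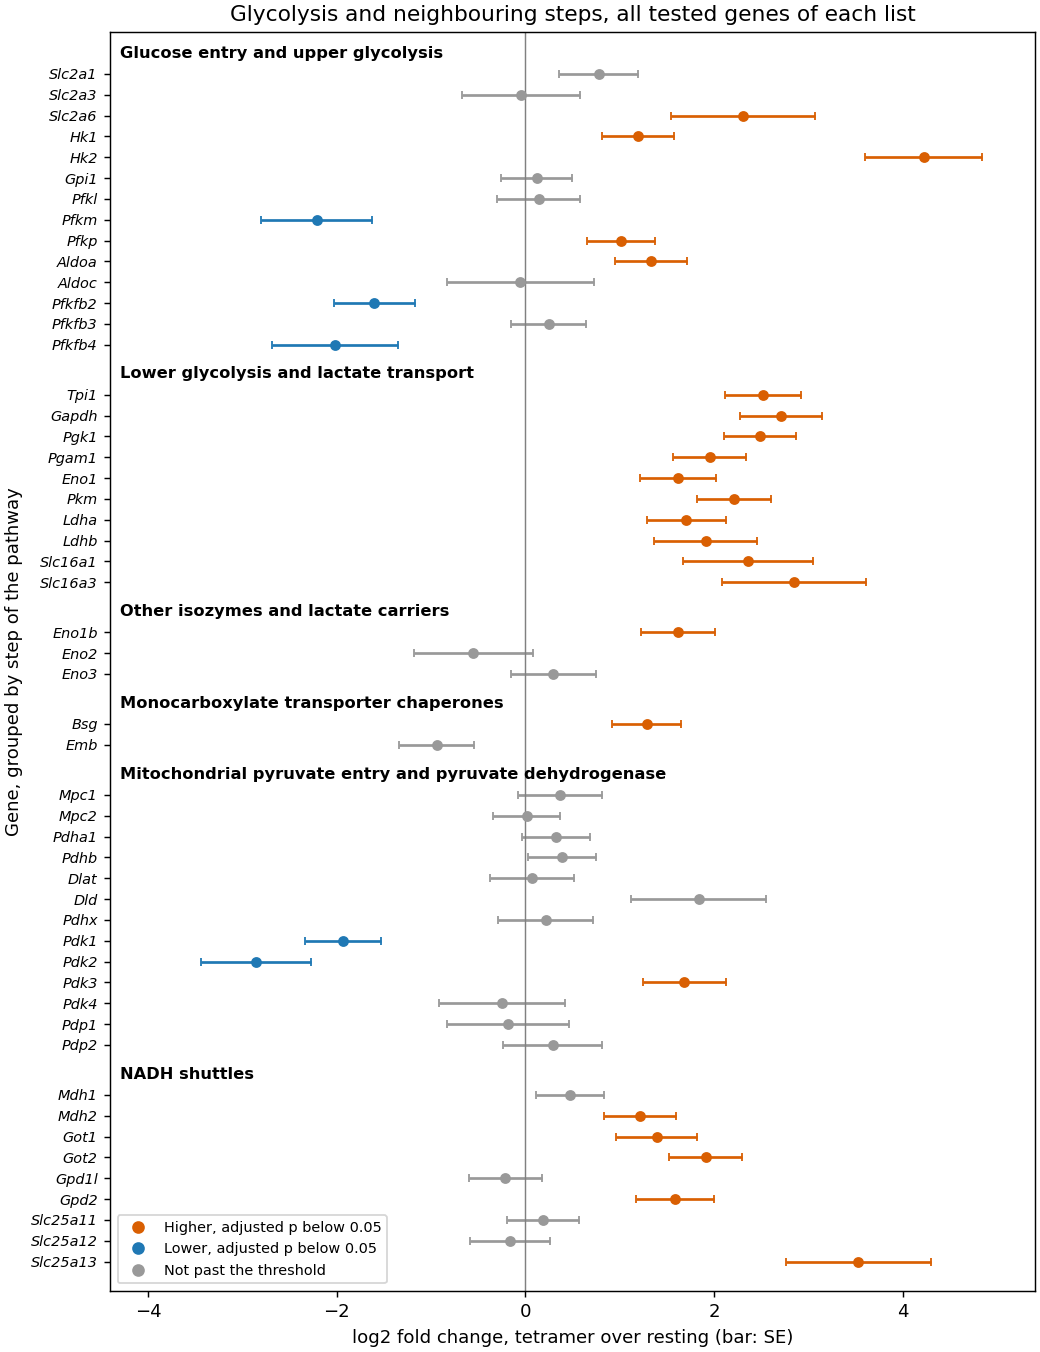
Log2 fold change, tetramer over resting, with SE bars for every tested gene of 6 lists from glucose entry to the NADH shuttles, orange where called higher, blue where called lower and grey where past no threshold. The block of 10 lower glycolysis and lactate transport genes is orange throughout, between 1.62 and 2.85, while the list above it holds 5 orange, 3 blue and 6 grey points.

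Other isozymes and lactate carriers had 3 of 14 listed genes with a row. Of these Eno1b rose, by 1.62 ± 0.39 on the log2 scale (edgeR adjusted p = 0.00339, lost without tetramer library 4 at 0.183), with the reservation on shared reads given above, while Eno2 and Eno3 had log2 fold changes of -0.55 and 0.30 and passed no threshold. Of the chaperones that bring lactate transporters to the cell surface, Bsg (basigin) had 436 and 413 CPM in tetramer libraries 4 and 5 and 150 and 199 CPM in resting libraries 4 and 5 (log2 fold change 1.29 ± 0.37, edgeR adjusted p = 0.0111). Bsg was no longer called when either library numbered 4 was left out (log2 fold change 1.26 without the tetramer and 1.11 without the resting library). Nor was Bsg called with all libraries in a test against a fold of 1.5 (edgeR glmTreat, adjusted p = 0.0523). The other chaperone, embigin (Emb), had 40.5 and 36.2 CPM in tetramer libraries 4 and 5 and 61.7 and 85.3 CPM in resting libraries 4 and 5, and did not pass the threshold (adjusted p = 0.0797).

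The competing fate of pyruvate, entry into mitochondria and oxidation by pyruvate dehydrogenase, had 13 tested genes, of which 1 rose and 2 fell, with a median log2 fold change of 0.22. These counts are near the 14.3% of all genes called higher and the 12.1% called lower, so they set the list apart from other genes in neither direction. The subunits Pdha1 and Pdhb had log2 fold changes of 0.33 ± 0.36 and 0.39 ± 0.36, and the pyruvate carrier Mpc2 one of 0.01 ± 0.36. The 3 genes called encode kinases that inhibit pyruvate dehydrogenase. Pdk2 had 5.52 and 1.82 CPM in tetramer libraries 4 and 5 and 27.6 and 25.9 CPM in resting libraries 4 and 5 (log2 fold change -2.85 ± 0.59, edgeR adjusted p = 0.000780). Tetramer library 5, at 9 counts, lay below the filter's minimum, so Pdk2 passed the filter through the resting libraries. Pdk1 had 26.6 and 24.1 CPM in tetramer libraries 4 and 5 and 110 and 83.8 CPM in resting libraries 4 and 5 (log2 fold change -1.93 ± 0.40). For both, the tetramer libraries lay below the resting libraries, which held for 33.7% of all tested genes. Pdk3 went the other way, with 55.0 and 52.6 CPM in tetramer libraries 4 and 5 and 19.5 and 13.9 CPM in resting libraries 4 and 5 (edgeR adjusted p = 0.00571, lost without tetramer library 4 at 0.0622).

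The NADH shuttles, which reoxidise cytosolic NADH without making lactate, had 9 tested genes, of which 5 rose and 0 fell (0 also at an unadjusted p below 0.05). Of all tested genes 14.3% were called higher and 12.1% lower, and with 9 genes, 0 lower is near that share. The aspartate-glutamate carrier Slc25a13 had 12.7 and 7.28 CPM in tetramer libraries 4 and 5 and 1.24 and 0.427 CPM in resting libraries 4 and 5 (log2 fold change 3.53 ± 0.77, edgeR adjusted p = 0.00135). Both resting libraries, at 6 and 2 counts, lay below the filter's minimum. Slc25a13 thus entered the test through its tetramer counts, which makes its call no independent support for a rise of the list. The mitochondrial aspartate aminotransferase Got2 rose by 1.91 ± 0.39 and the glycerol phosphate dehydrogenase Gpd2 by 1.59 ± 0.42 on the log2 scale. Without tetramer library 4 the log2 fold change was 3.10 for Slc25a13, 1.76 for Got2 and 1.30 for Gpd2. Fewer genes of the list were then called, as over all genes, and Slc25a13 and Gpd2 were not. Of 7 genes of serine synthesis from phosphoglycerate and of side reactions, 2 rose and 0 fell, beside the same 14.3% and 12.1% of all genes. Psat1, an aminotransferase of serine synthesis, had 196 and 133 CPM in tetramer libraries 4 and 5 and 12.0 and 5.56 CPM in resting libraries 4 and 5 (log2 fold change 4.22 ± 0.46, edgeR adjusted p = 3.44e-07). Phgdh, which draws its substrate from the pathway ahead of Pgam1, had 269 and 128 CPM in tetramer libraries 4 and 5 and 45.8 and 54.9 CPM in resting libraries 4 and 5 (log2 fold change 1.98 ± 0.40), a call lost without tetramer library 4 (adjusted p = 0.0816).

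Of 11 tested genes of transcription factors known to act on glycolytic genes and of their oxygen-sensing regulators, 4 rose and 2 fell. Over all tested genes 14.3% were called higher and 12.1% lower. With any 1 library left out, no more genes of the list were called higher, and fewer were called lower. Irf4, a factor induced by T cell receptor signals, had 217 and 236 CPM in tetramer libraries 4 and 5 and 8.29 and 2.99 CPM in resting libraries 4 and 5 (log2 fold change 5.32 ± 0.49, edgeR adjusted p = 1.69e-08). Egln3, a prolyl hydroxylase that marks HIF-1 for destruction and is itself a known HIF-1 target, had 104 and 69.2 CPM in tetramer libraries 4 and 5 and 4.35 and 4.70 CPM in resting libraries 4 and 5 (log2 fold change 4.25 ± 0.48, edgeR adjusted p = 5.70e-07). Myc was low, with 8.39 and 2.23 CPM in tetramer libraries 4 and 5 and 1.04 and 0.641 CPM in resting libraries 4 and 5 (log2 fold change 2.62 ± 0.80, edgeR adjusted p = 0.0163, 0.0484 by DESeq2, 0.0511 by limma-voom). These levels rest on 41 and 11 counts in tetramer libraries 4 and 5 and on 5 and 3 counts in resting libraries 4 and 5. Both resting libraries lay below the filter's minimum, so Myc entered the test through its tetramer counts. Without tetramer library 4 it did not pass the filter and was not tested. Hif1a, named after its values were seen, had 105 and 125 CPM in tetramer libraries 4 and 5 and 51.0 and 22.9 CPM in resting libraries 4 and 5. The Arnt partner of HIF-1 had a log2 fold change of -0.29 ± 0.57 and passed no threshold. The 2 genes of the list called lower were Epas1 and Mlxip. Epas1 had 7.98 and 11.9 CPM in tetramer libraries 4 and 5 and 21.5 and 47.7 CPM in resting libraries 4 and 5. Its log2 fold change was -1.79 ± 0.51 (edgeR adjusted p = 0.0110), and that of Mlxip was -1.15 ± 0.43 (edgeR adjusted p = 0.0481).

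Among 7882 genes with a mean of at least 10 CPM, the profile over the 4 libraries most like that of Ldha, by root mean square difference of centred log2 CPM, was that of Hmga1, a chromatin protein, at 0.0538. Slc25a5, an ADP/ATP carrier of mitochondria, followed at 0.0857, and the unnamed gene models Gm4737 and Gm5643 at 0.106 and 0.110. Hmga1 had 173 and 60.9 CPM in tetramer libraries 4 and 5 and 36.7 and 31.2 CPM in resting libraries 4 and 5. For Slc16a1 the nearest profiles were those of Aven, Tubg1, Slc25a5 and Dnaaf2, at 0.346 to 0.393.

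Markers of other cells moved between the libraries as well. The 3 of 10 hepatocyte markers with a row summed to 13.7 and 18.2 CPM in tetramer libraries 4 and 5 and 38.5 and 59.0 CPM in resting libraries 4 and 5. The 5 of 6 erythroid markers summed to 35.8 and 80.7 CPM in tetramer libraries 4 and 5 and 146 and 410 CPM in resting libraries 4 and 5. All 6 pancreatic islet markers, listed because the extraction protocol names islets, had a row, with sums of 237 and 429 CPM in tetramer libraries 4 and 5 and 267 and 980 CPM in resting libraries 4 and 5. The macrophage (3 of 10), B cell (4 of 7), neutrophil (2 of 6), endothelial (2 of 6) and CD8 (2 of 2) lists each summed to 1.84 to 17.4 CPM in the tetramer libraries and 18.0 to 75.4 CPM in the resting libraries. The table holds no count of 0, and markers without a row, such as Alb and Lyz2, were not analysed here. The part of these cells in the levels of the 10 genes was not tested.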

How the data were processed

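RNA sequencing counts from 4 libraries of sorted mouse NKT cells were analysed, 2 tetramer-stimulated and 2 resting. The labels' protocols describe TRIzol extraction, poly(A) selection, size selection at 200 to 400 nt and 23 PCR cycles. The authors deposited raw read counts per gene symbol. Bowtie2, DESeq2 and the mm9 build are named in the submitters' processing notes. The sources used here give neither the counting tool nor its use of strand. Columns were matched to groups by name. Of 12021 rows, 1 was left out because a cell is not a number, and no count is below 1. Totals ranged from 4168438 to 5495521 counts.

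The deposited counts went into edgeR 4.0.16 under R 4.3.3 (quasi-likelihood F test, filterByExpr with a minimum count of 10, TMM), with Benjamini-Hochberg adjustment over 11312 genes and a threshold of 0.05. Standard errors were taken from the F statistic. DESeq2 1.42.0, limma-voom (limma 3.58.1) and the other alternatives served as checks. Close copies were found with BLAST 2.17.0. The labels do not say whether a group's libraries are from different mice, and the p-values reflect their spread alone, technical or not. Chi-square between the libraries of a group was 28.5 (tetramer) and 31.7 (resting) times its degrees of freedom, far above sampling noise.

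The members and lists were chosen with earlier results of these data known. Besides the 10 genes, the text names from each list the 3 called genes with the largest absolute log2 fold change (or the smallest p), and for Ldha and Slc16a1 the 4 nearest profiles. The gene pairs of the ratios, Gapdh and Aldoa among them, were part of the design. Other genes were named after their values were seen.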

Additional observations from a re-analysis of the deposited data

How the results depend on the processing

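Of 128 values of the 10 genes under other settings, 122 kept direction and call, 6 lost the call and 0 reversed. With single libraries left out a reversal was hardly possible, because both tetramer libraries lay above both resting libraries for each gene. Of the losses, 4 came without tetramer library 4. With single libraries left out, 6 to 10 of the 10 genes were higher and 0 lower. The other pathway genes called higher numbered 19 of 59 with all libraries and 7 to 16 with single libraries left out, and those called lower 7, and 2 to 5. Over all genes the calls were 14.3% higher and 12.1% lower with all libraries, and 5.33 to 13.9% higher and 2.68 to 12.7% lower with single libraries left out, so the lower calls of these lists lie near the share over all genes. The 7 and the 2 came without tetramer library 4, where 1 tetramer library is assumed to vary like the resting pair. The 10 genes' share of counts exceeded that of resting libraries by 0.514 percentage points, and by 0.281 without Gapdh, 0.605 with TMM-adjusted sizes and 0.674 with close copies added, a setting chosen after seeing the data, where fewer or more genes were summed by construction. It ranged from 0.394 to 0.634 with single libraries left out. The log2 difference of the Ldha to Ldhb ratio, tetramer minus resting, was -0.32, and ranged from -1.36 to 0.72, reversing to 0.72 without tetramer library 5. That of Slc16a3 to Slc16a1 was 0.63 (0.06 to 1.19) and that of Gapdh to Aldoa 1.38 (0.81 to 1.94). The stricter filter left Slc16a1 and Slc16a3 out, and 8 of the 10 genes were then called higher. Same-numbered libraries of the groups deviated with a correlation of 0.05 across genes, and no label says that the column numbers pair the samples, although the summed markers of erythroid, islet, hepatocyte, macrophage, B and CD8 cells were higher in library 5 than in library 4 of both groups. The fit with the number as a replicate block called 10 of the 10 genes higher (15% of all genes) and 0 lower, 18 other pathway genes higher and 7 lower, and 3161 genes in all against 2986. Depth limits Slc16a3 most, at 5 counts in each resting library.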
